A study of Mus musculus with 12 samples.

Results

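Integrins are cell-surface receptors built from an alpha and a beta chain, which tie the extracellular matrix outside the cell to the actin cytoskeleton inside it. The chains decide the ligand: alpha3, alpha6 and alpha7 with beta1 bind laminins, alpha5 with beta1 binds fibronectin, and alphav with beta3 or beta5 binds vitronectin and other ligands with an RGD motif. Alpha7beta1 is the main laminin receptor of skeletal muscle fibres, and melusin, the product of Itgb1bp2, is a muscle protein that binds the cytoplasmic tail of beta1. Beta7 pairs with alpha4 or alphaE and is best known from lymphocytes. This account covers 9 integrin subunit genes (Itga3, Itga5, Itga6, Itga7, Itgav, Itgb1, Itgb3, Itgb5 and Itgb7) and Itgb1bp2. These 10 genes were taken by their symbols in the array annotation, from 19057 genes on the array.

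The cells were C2C12, a mouse myoblast line whose cells fuse to myotubes when serum is withdrawn. All were transfected with siRNA at 100 nM and then moved to differentiation medium. The siRNA was directed against BRM (siBRM, gene Smarca2), against BRG1 (siBRG1, gene Smarca4) or was scrambled (siSCR), and RNA was taken at 48 h or at 18 h, which gives 6 groups of 2 arrays. BRM and BRG1 are the alternative ATPases of the SWI/SNF chromatin remodelling complexes, and the series asks which genes depend on either. Nothing in the labels says that replicates came from separate cultures: a p-value here covers the spread between these samples, which may be technical. In such bulk RNA fewer cells with a transcript and less of it per cell cannot be told apart.

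The arrays sat on 3 BeadChips: replicate 1 at 18 h on the first, replicate 1 at 48 h on the second and all of replicate 2 on the third. Mean signals were 513 to 545.9, 664.9 to 794 and 1218 to 1644 on these chips, and 27.33% to 39.37% of the probes were detected, that is, had a detection p under 0.05. Each siRNA target was lower than in siSCR cells in both replicates at both times. The log2 difference of Smarca2, siBRM minus siSCR, was -0.59 at 48 h and -1.17 at 18 h, and that of Smarca4, siBRG1 minus siSCR, was -1.94 and -1.21, with limma's adjusted p = 1 for each. Smarca4 was not detected on the replicate 1 arrays of siBRG1 cells. Of 8 muscle markers on the array 7 were detected and Myf5 was not. The summed signal of those 7 was 151938 to 160336 in siBRM, 104309 to 105751 in siBRG1 and 151009 to 172477 in siSCR cells at 48 h, against 29068.9 to 46993.5, 24101.1 to 35084.6 and 34637.9 to 43637 at 18 h.

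All 10 members had at least 1 probe that was tested, which needed detection on at least 2 arrays. Of their 19 probes 16 were tested and 3, of Itgav and Itga6, were detected on no array. Itga7, Itga3, Itga5, Itgav and Itgb5 were detected on all 12 arrays, Itgb1 on 11, Itgb1bp2 on 8, Itga6 on 7, Itgb7 on 6 and Itgb3 on 4. Itgb7 was detected on every 18 h array and on no 48 h array. For a gene with several tested probes the one of highest mean level was used, and 5 members had further probes. Levels are log2 normalized signals, which can be compared between arrays for 1 probe but not between probes.

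**Figure D1:**
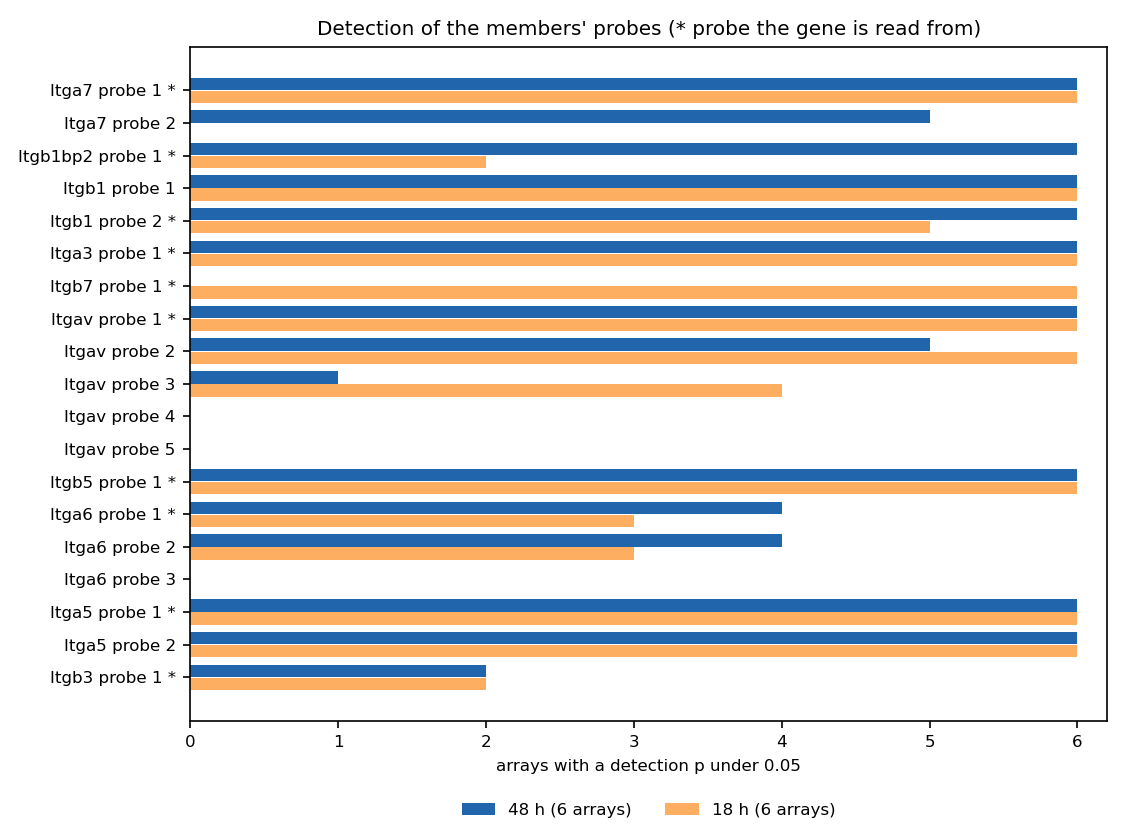
Number of arrays, out of 6 at 48 h (upper bar) and 6 at 18 h (lower bar), on which each of the members' 19 probes had a detection p under 0.05; an asterisk marks the probe the gene is read from. Itgb7 was detected at 18 h alone, and the second Itga7 probe at 48 h alone.

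Itgb7, Itga3 and Itgav were the members that were lower at 48 h in both replicates with every siRNA, and their promoters are shown for that reason. RefSeq (GRCm38.p6) gave a promoter window for 6 of the 10 members. A window of 300 bases covers 250 bases before and 50 after the annotated start. Capitals mark CANNTG, the E-box that myogenic bHLH factors can bind, and GGGCGG, the GC-box of Sp1-type factors, each found on either strand. TGANTCA, the AP-1 motif, was searched as well and is in none of these 3 windows. The second annotated window of Itga3, which is not shown, holds 1 match to it. No matches overlapped. Over all 32841 windows of this length 72.3% hold CANNTG, 35.7% hold GGGCGG or its complement and 7.81% hold TGANTCA. Itgb7 lies at chr15:102231886-102232185 on the minus strand, Itga3 at chr11:95076665-95076964 on the minus strand (the first of 2 annotated windows) and Itgav at chr2:83724147-83724446 on the plus strand.
Itgb7: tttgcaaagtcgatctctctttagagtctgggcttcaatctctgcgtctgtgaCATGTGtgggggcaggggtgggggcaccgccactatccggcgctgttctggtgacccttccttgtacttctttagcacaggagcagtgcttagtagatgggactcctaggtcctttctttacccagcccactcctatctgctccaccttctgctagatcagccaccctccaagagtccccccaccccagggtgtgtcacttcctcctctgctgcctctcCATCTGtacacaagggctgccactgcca
Itga3: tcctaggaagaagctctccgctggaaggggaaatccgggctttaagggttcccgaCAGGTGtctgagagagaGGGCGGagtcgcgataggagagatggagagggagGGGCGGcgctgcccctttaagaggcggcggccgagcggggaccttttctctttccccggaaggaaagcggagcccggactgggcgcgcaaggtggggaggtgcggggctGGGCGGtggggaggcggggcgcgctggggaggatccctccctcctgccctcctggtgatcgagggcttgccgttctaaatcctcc
Itgav: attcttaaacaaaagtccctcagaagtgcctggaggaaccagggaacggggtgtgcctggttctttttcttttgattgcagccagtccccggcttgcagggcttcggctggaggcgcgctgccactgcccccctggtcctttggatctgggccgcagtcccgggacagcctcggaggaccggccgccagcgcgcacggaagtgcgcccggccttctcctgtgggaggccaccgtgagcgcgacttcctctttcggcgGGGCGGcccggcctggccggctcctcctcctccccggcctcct
The Itgb7 window holds 2 E-boxes and no GC-box at 56.3% G and C, the Itga3 window 1 E-box and 3 GC-boxes at 66.7%, and the Itgav window 1 GC-box and no E-box at 67.3%. None of the motifs searched is therefore in all 3 windows.

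Between 18 h and 48 h the members went both ways. In replicate 1 the times sat on different BeadChips, so time and BeadChip cannot be told apart there. Itgb7 fell in siBRM and in siSCR cells. A second fit held the BeadChip as a fixed term (the BeadChip fit), and there Itgb1bp2 rose in both and Itga3 fell in siBRM cells. Of the 10 members 1 passed the test in siBRM cells, against 0.461% of all 10847 genes tested, none in siBRG1 cells, against 0.101%, and 1 in siSCR cells, against 0.323%. The BeadChip fit called 3 in siBRM cells (1.5% of all genes), none in siBRG1 cells (0.479%) and 2 in siSCR cells (1.65%). An unadjusted p under 0.05 without a block was found for 3 members in siBRM cells (4.76% of all genes), 2 in siBRG1 cells (3.36%, Itgb1bp2 and Itgb7) and 3 in siSCR cells (5.39%). The BeadChip fit gave 5 (14.6%), 4 (11%) and 5 (17.2%). With the replicate as a block 1 member was called in siBRG1 cells, Itgb1bp2, among 94 of all 10847 genes tested. Members higher at 48 h in both replicates numbered 4 in siBRM, 3 in siBRG1 and 4 in siSCR cells, against 29.1%, 31% and 25.3% of all genes, and members lower in both numbered 3 in each, against 31.7%, 33.9% and 31.9%. The groups did not overlap for 2, 1 and 3 members that were higher (12.4%, 12.3% and 12.7% of all genes) and for 3, 2 and 3 that were lower (12.5%, 11% and 12.8%). The median 48 h minus 18 h difference over the members was 0.04 in siBRM, 0.12 in siBRG1 and 0.13 in siSCR cells, beside -0.02, -0.02 and -0.06 over all genes tested.

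**Figure D2:**
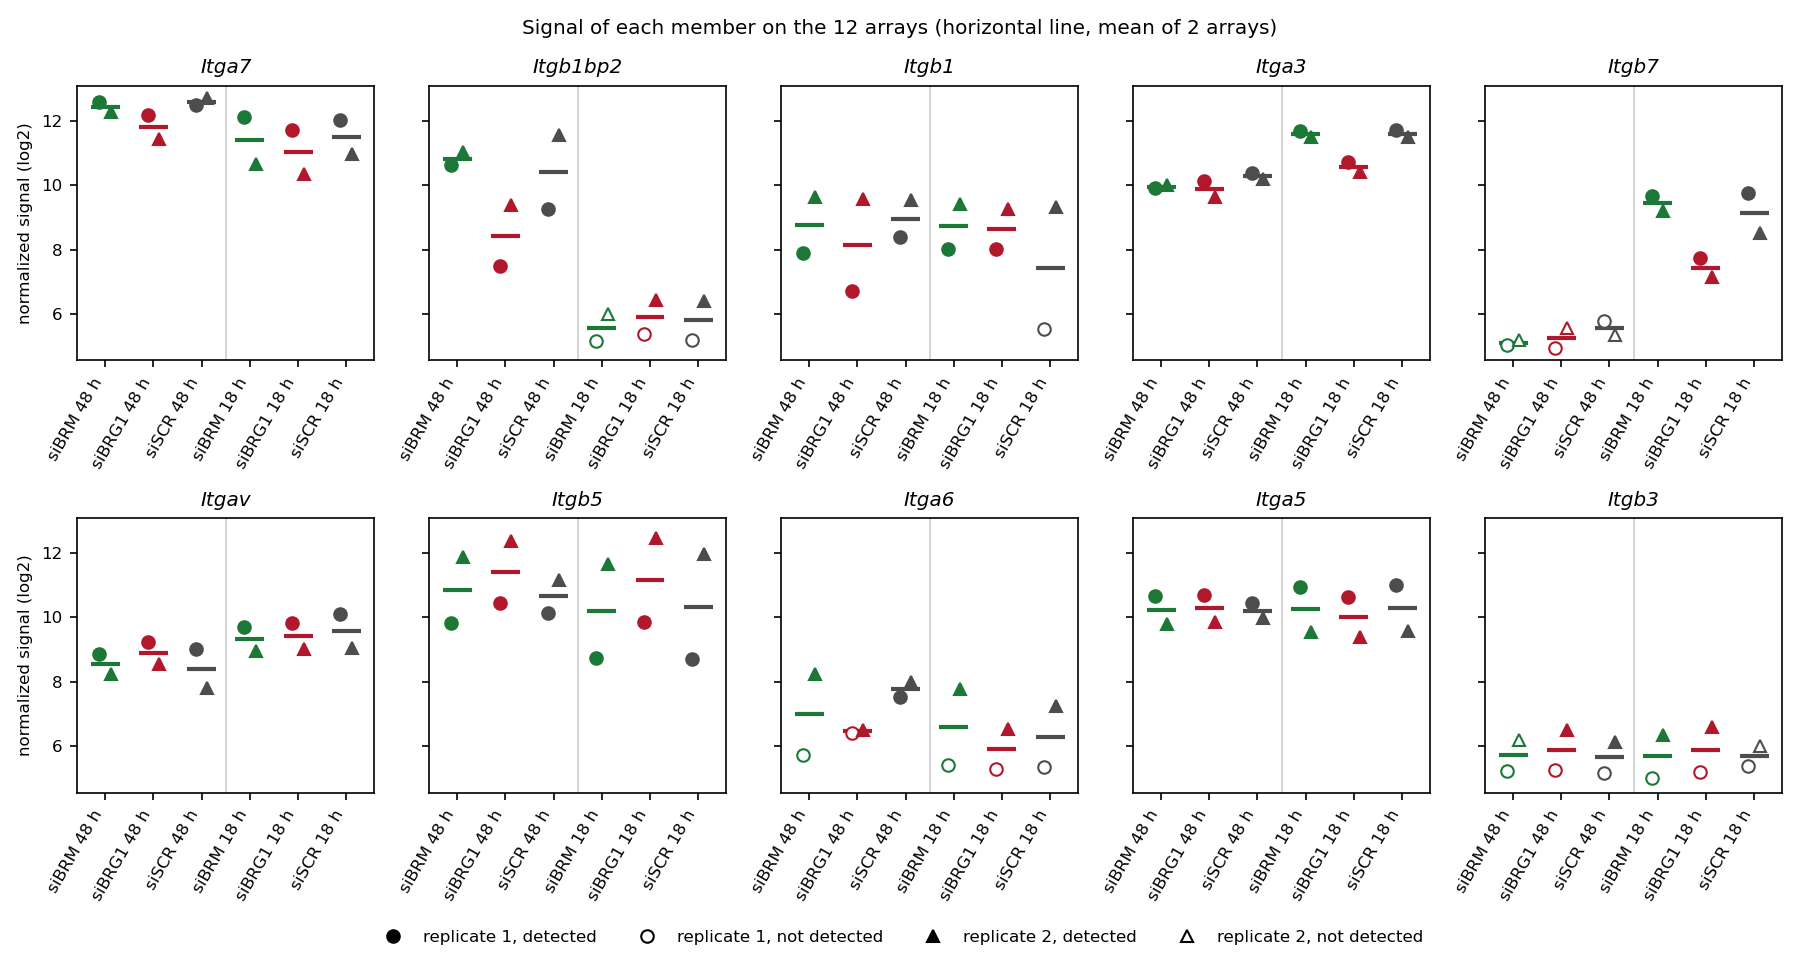
Log2 normalized signal of the 10 members on each of the 12 arrays, with 48 h left of 18 h in each panel; circles are replicate 1, triangles replicate 2, open symbols were not detected and lines are means of 2 arrays. Itgb1bp2 is detected on all 6 arrays at 48 h and on 2 at 18 h, and Itgb7 on all 6 arrays at 18 h and on none at 48 h.

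Of the laminin-binding chains, Itga7 was bright on every array. Its levels at 48 h were 12.58 and 12.26 in siBRM cells, 12.18 and 11.43 in siBRG1 cells, and 12.49 and 12.69 in siSCR cells (replicates 1 and 2 here and below). At 18 h they were 12.12 and 10.65, 11.72 and 10.35, and 12.02 and 10.96 in the same order of groups. Replicate 1 was above replicate 2 at 18 h in every group by over 1 on this scale, and the 48 h arrays lay above both 18 h arrays in siBRM and siSCR cells but not in siBRG1 cells. The difference, 48 h minus 18 h, was 1.03 ± 0.66 in siBRM cells and 1.10 ± 0.66 in siSCR cells (SE, n = 2 arrays per group, as for each SE below), with limma's adjusted p = 1 for both. By replicate it was 0.45 and 1.61 in siBRM and 0.47 and 1.73 in siSCR cells. In the BeadChip fit it was 1.53 (adjusted p = 0.0942) and 1.60 (adjusted p = 0.0756).

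The second Itga7 probe was at background on all 6 arrays at 18 h. At 48 h it read 8.13 and 7.71 in siBRM cells, 6.19 (not detected) and 6.36 in siBRG1 cells, and 7.20 and 8.33 in siSCR cells. Against the detection limit of the 18 h arrays, the lowest signal of a detected probe on each, it was at least 2.60-fold higher at 48 h in siBRM cells and at least 2.29-fold higher in siSCR cells. Its fitted rise passed the test in siBRM cells (adjusted p = 0.0460) and missed it in siSCR cells (adjusted p = 0.135, or 0.0435 in the BeadChip fit). Both probes of Itga7 thus had the same direction over time, and they differed in which comparisons were called.

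Itgb1bp2, whose product binds beta1, had the widest range of the members. At 48 h its levels were 10.63 and 11.02 in siBRM cells, 7.48 and 9.40 in siBRG1 cells, and 9.26 and 11.56 in siSCR cells. The 18 h levels were 5.16 and 6.00 in siBRM cells, neither detected, 5.38 (not detected) and 6.43 in siBRG1 cells, and 5.21 (not detected) and 6.41 in siSCR cells. Every 48 h array was above every 18 h array, whatever the siRNA. In siBRM cells the gene was at least 19.5-fold higher at 48 h, with a fitted difference of 5.25 ± 0.89 (adjusted p = 0.0547, and 0.00443 in the BeadChip fit). In siSCR cells the fitted difference was 4.60 ± 0.89 (adjusted p = 0.117 and 0.00780), with at least 4.78-fold in replicate 1 and a log2 difference of 5.15 in replicate 2, where both arrays detected it. In siBRG1 cells it was 2.54 ± 0.89 (adjusted p = 1 and 0.0884, and 0.0451 with the replicate as a block), with at least 1.09-fold in replicate 1 and 2.97 in replicate 2.

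Itga3, the alpha3 chain, was steady between replicates. At 48 h it read 9.91 and 10 in siBRM cells, 10.12 and 9.64 in siBRG1 cells, and 10.39 and 10.19 in siSCR cells. At 18 h the levels were 11.69 and 11.50 in siBRM cells, 10.73 and 10.42 in siBRG1 cells, and 11.71 and 11.49 in siSCR cells. All 48 h arrays lay below all 18 h arrays. The difference was -1.64 ± 0.39 in siBRM cells (adjusted p = 0.216, and 0.0430 in the BeadChip fit) and -1.31 ± 0.39 in siSCR cells (adjusted p = 0.529 and 0.0871, and 0.0347 with the replicate as a block).

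Itga6, the alpha6 chain, was near the detection limit. It read 5.74 (not detected) and 8.26 in siBRM cells, 6.42 (not detected) and 6.51 in siBRG1 cells, and 7.54 and 8.01 in siSCR cells at 48 h. Its 18 h levels were 5.42 and 7.79, 5.30 and 6.55, and 5.36 and 7.25 in the same groups, with replicate 1 not detected in any of them. In siSCR cells it was at least 1.45-fold higher at 48 h in replicate 1 and 0.76 higher on the log2 scale in replicate 2, with a fitted difference of 1.47 ± 1.03 (adjusted p = 1). A second probe of Itga6 was detected on 7 arrays too. It was below detection on both siSCR arrays at 18 h and close to the detection limit at 48 h, so it gives no lower bound there over both replicates.

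Itgb1, the common partner of these alpha chains, had probes that disagreed. The probe with the higher mean read 7.89 and 9.65 in siBRM, 6.71 and 9.56 in siBRG1, and 8.38 and 9.54 in siSCR cells at 48 h. At 18 h it read 8.02 and 9.43, 8.03 and 9.25, and 5.55 (not detected) and 9.34 in these groups. Replicate 2 stayed within 9.25 and 9.65, whereas replicate 1 ranged more widely and held the undetected siSCR array. The 48 h minus 18 h difference in siSCR cells was 1.52 ± 1.32 (adjusted p = 1), with at least 2.59-fold in replicate 1 and 0.20 on the log2 scale in replicate 2. Without the replicate 1 array at 18 h it was -0.38, a value that sets both replicates at 48 h against replicate 2 alone and so mixes BeadChips. The other probe, detected on all 12 arrays, differed there by 0.43 ± 0.60, with -0.41 and 1.27 in the replicates. Between siBRG1 and siSCR cells at 48 h the first probe differed by -0.82 (-1.66 and 0.03 in the replicates) and the other by 0.50 (0.75 and 0.24). The probes were on opposite sides in replicate 1 and on the same side in replicate 2.

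Of the chains that bind fibronectin and vitronectin, Itga5 differed little between the times. It read 10.67 and 9.81 in siBRM, 10.71 and 9.86 in siBRG1, and 10.46 and 9.97 in siSCR cells at 48 h. The 18 h levels were 10.95 and 9.56, 10.65 and 9.40, and 10.99 and 9.59 in these groups. The gap between replicates exceeded every gap between group means. Itgav, the alphav chain, was lower at 48 h in all 6 pairs of arrays. Its levels were 8.88 and 8.24 in siBRM cells, 9.23 and 8.55 in siBRG1 cells, and 9.02 and 7.80 in siSCR cells at 48 h. At 18 h they were 9.70 and 8.96, 9.83 and 9.02, and 10.10 and 9.04. In siSCR cells the difference was -1.16 ± 0.61 (adjusted p = 1, and 0.125 in the BeadChip fit). A second Itgav probe, not detected on the replicate 2 array of siSCR cells at 48 h, was lower at 48 h by at least 1.94-fold in that replicate, and its replicate 1 difference was -0.86. The third was detected on neither siSCR array at 48 h, and at 18 h in replicate 2 alone. It was at least 1.47-fold lower at 48 h in that replicate, and replicate 1 gives no bound.

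Itgb5, a beta partner of alphav, read 9.84 and 11.87 in siBRM cells, 10.44 and 12.38 in siBRG1 cells, and 10.13 and 11.18 in siSCR cells at 48 h. Its 18 h levels were 8.76 and 11.65, 9.85 and 12.47, and 8.72 and 11.96. Replicate 2 was above replicate 1 in every group, and the direction over time differed between replicates in siBRG1 and siSCR cells. Itgb3, the other beta partner, lay at background on all arrays of replicate 1, between 5.03 and 5.39. In replicate 2 it read 6.21 (not detected), 6.52 and 6.14 in siBRM, siBRG1 and siSCR cells at 48 h, and 6.35, 6.59 and 6.03 (not detected) at 18 h. At this signal no difference of Itgb3 was detectable.

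Itgb7 had the clearest fall. At 18 h it read 9.68 and 9.20 in siBRM cells, 7.75 and 7.14 in siBRG1 cells, and 9.74 and 8.52 in siSCR cells. No array detected it at 48 h, where the background readings lay between 4.95 and 5.77. It was at least 7.71-fold lower at 48 h in siBRM cells (fitted difference -4.32 ± 0.52, adjusted p = 0.0162), at least 2.08-fold lower in siBRG1 cells (-2.18 ± 0.52, adjusted p = 0.505) and at least 7.52-fold lower in siSCR cells (-3.57 ± 0.52, adjusted p = 0.0363). The adjusted p was 0.00494, 0.165 and 0.0120 in these cells in the BeadChip fit. Without any 1 of the 4 arrays compared, the call was lost, with adjusted p from 0.110 to 0.238 in siBRM cells and from 0.108 to 0.410 in siSCR cells, while the fitted difference stayed between -4.56 and -4.07 and between -4.19 and -2.96. Under median scaling of the arrays it was not called in either (adjusted p = 0.162 in siBRM and 0.240 in siSCR cells). Without background correction the difference was -2.12 in siBRM cells (adjusted p = 0.0288) and -1.70 in siSCR cells (adjusted p = 0.0911). The bound is set by the detection limit of the 48 h arrays and by the 18 h level, which was lower in siBRG1 cells.

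**Figure D3:**
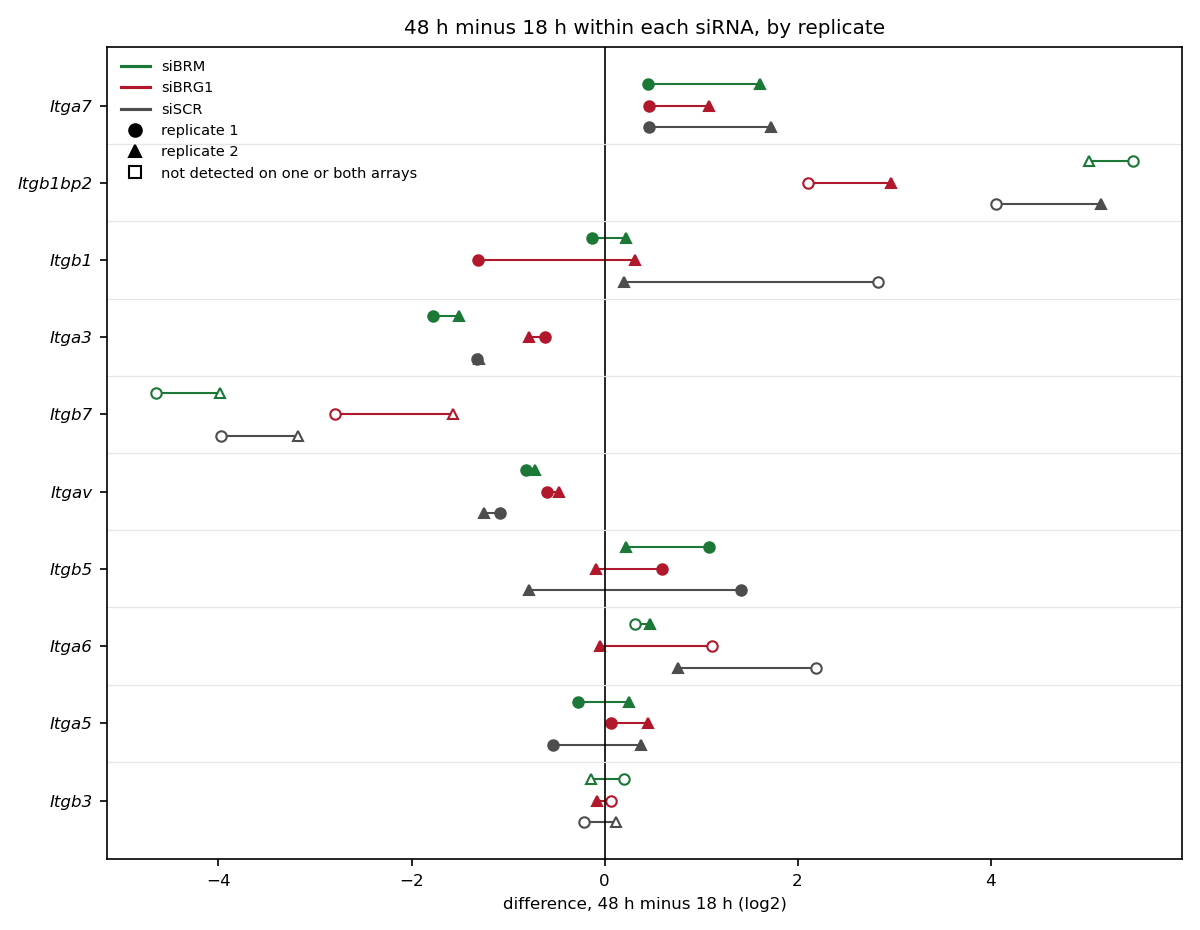
Log2 difference, 48 h minus 18 h, of each member in siBRM, siBRG1 and siSCR cells; circles are replicate 1, triangles replicate 2, and open symbols mark differences in which 1 or both arrays did not detect the gene. Itga7 and Itgb1bp2 are on the positive side and Itgb7, Itga3 and Itgav on the negative side in both replicates of every group.

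Between siBRM and siSCR cells no difference of a member was detectable. None of the 10 members passed limma's test at 48 h or at 18 h, without a block or in the BeadChip fit, and 0% of all genes did at either time. At an unadjusted p under 0.05 no member passed in either fit, against 0.157% and 0.313% of all genes without a block at 48 h and 18 h and 2.24% and 2.58% in the BeadChip fit. At 48 h the 10 differences, siBRM minus siSCR, lay between -0.78 and 0.41, with 1 member higher and 2 lower in both replicates, against 21% and 16.5% of all genes. At 18 h all but 1 lay between -0.24 and 0.31, with 2 higher and 3 lower in both replicates, against 24% and 26.4%. The exception was Itgb1 at 1.28 ± 1.32. On this probe it rests on the siSCR array of replicate 1 that did not detect it. Replicate 1 gives at least 2.02-fold higher Itgb1 with siBRM, and replicate 2 a log2 difference of 0.09. Without that array the difference was -0.61, which sets both siBRM replicates against replicate 2 of siSCR alone. The other Itgb1 probe, detected on all 12 arrays, was also higher with siBRM in both replicates. It read 9.20 and 7.59 in siBRM cells against 8.32 and 7.29 in siSCR cells.

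siBRG1 was followed by lower Itgb7 and Itga3 at 18 h and lower Itgb1bp2 and Itga6 at 48 h in both replicates, but none passed the test. No member was called at 48 h or 18 h in limma's fit without a block or in the BeadChip fit, where 0% of all genes were called. At an unadjusted p under 0.05 none and 2 members passed at 48 h and 18 h without a block, against 2.01% and 1.18% of all genes. The BeadChip fit gave 4 and 3, against 10.6% and 6.06%. At 48 h 3 members were higher and 4 lower in both replicates, against 30% and 24.1% of all genes, and at 18 h 2 were higher and 6 lower, against 29.8% and 29.7%. Members lower in both replicates, with a mean difference of at least 1 on the log2 scale, numbered 2 at each time. Of all genes 2.86% were at 48 h and 2.65% at 18 h. None was higher in both replicates with a mean difference of that size, against 2.23% and 1.68%.

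**Figure D4:**
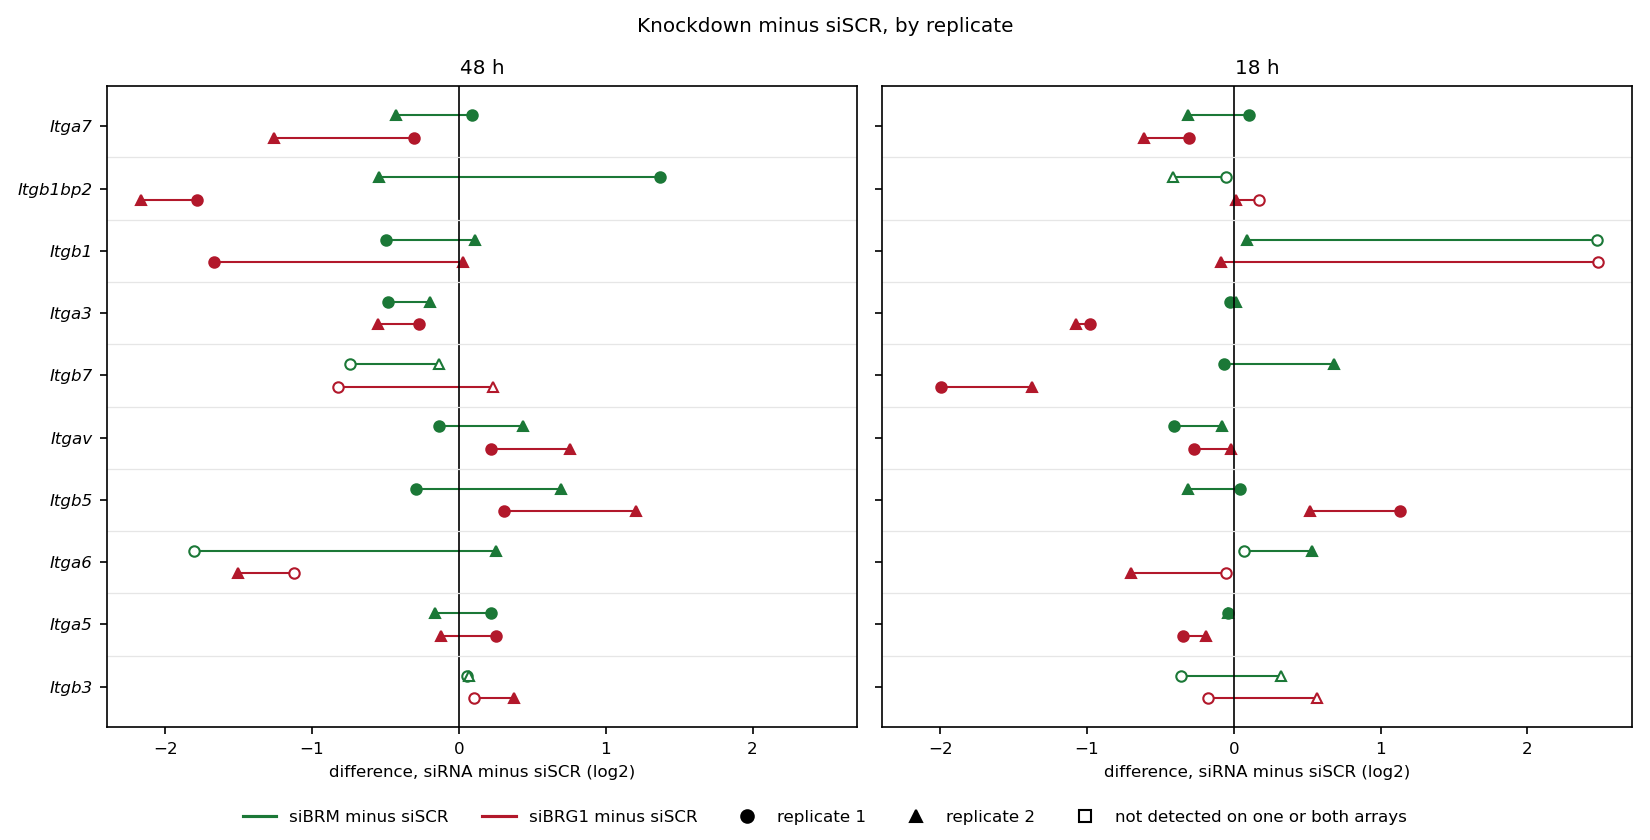
Log2 difference of each member, siBRM minus siSCR and siBRG1 minus siSCR, at 48 h (left) and 18 h (right); circles are replicate 1, triangles replicate 2, and open symbols mark differences in which 1 or both arrays did not detect the gene. With siBRG1, Itgb1bp2 lies at -1.78 and -2.16 at 48 h and Itgb7 between -1.99 and -1.37 at 18 h.

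At 48 h Itgb1bp2 differed by -1.97 ± 0.89 between siBRG1 and siSCR cells, with -1.78 and -2.16 in the replicates. All 4 arrays detected it, and the siBRG1 array of replicate 2 (9.40) lay above the siSCR array of replicate 1 (9.26), so the groups overlap although each pair within a replicate differs. Limma gave an adjusted p = 1 without a block and 0.233 in the BeadChip fit. With median scaling and the BeadChip term, a combination chosen after seeing the data, the difference was -2.24 (adjusted p = 0.0262), where the median of all genes stood at -0.18 and 274 genes were called. Against siBRM cells the difference was -2.39 ± 0.89 (-3.15 and -1.62, adjusted p = 1, and 0.179 in the BeadChip fit). The muscle markers moved the same way: the 7 tested ones had a median difference of -0.92 between siBRG1 and siSCR cells at 48 h, and all 7 were lower in both replicates. At 18 h, where Itgb1bp2 was at or near background in both groups, their median was -0.86, with 6 of the 7 lower in both replicates. Their part in the difference of Itgb1bp2 was not tested.

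Itga6 differed by -1.31 ± 1.03 at 48 h between siBRG1 and siSCR cells (adjusted p = 1). It was at least 1.92-fold lower in replicate 1, where siBRG1 cells were at background, and -1.5 on the log2 scale in replicate 2. In replicate 2 its second probe differed by 0.43, so the probes disagree there. In replicate 1 that probe was not detected in siBRG1 cells and close to the detection limit in siSCR cells, and no bound could be set. Itga7 was among the members whose groups did not overlap at 48 h, with Itga3 and Itga6, all lower in siBRG1 cells. Of all genes 10.5% lay apart in this direction. The second Itga7 probe, not detected in siBRG1 cells of replicate 1, was at least 1.51-fold lower there and differed by -1.97 in replicate 2. Itga3 was also lower in siBRM than in siSCR cells in both replicates at 48 h (9.91 and 10 against 10.39 and 10.19), as were 16.5% of all genes. Itga6 was not detected in siBRM cells of replicate 1 either (5.74, against 6.42 in siBRG1 cells). In replicate 2 it read 8.26 in siBRM and 8.01 in siSCR cells.

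At 18 h Itgb7 was detected on every array and differed by -1.68 ± 0.52 between siBRG1 and siSCR cells, with -1.99 and -1.37 in the replicates (adjusted p = 1, and 0.818 in the BeadChip fit). The order of its mean levels was 9.44 in siBRM, 9.13 in siSCR and 7.45 in siBRG1 cells; siBRM and siSCR overlap, and both siBRG1 arrays lie below all others. Against siBRM cells it differed by -1.99 ± 0.52 (-1.93 and -2.05, adjusted p = 1 and 0.419). Itga3 differed by -1.02 ± 0.39 between siBRG1 and siSCR cells (-0.98 and -1.07, adjusted p = 1 and 0.818) and by -1.02 ± 0.39 between siBRG1 and siBRM cells (-0.95 and -1.09, adjusted p = 1 and 0.605). Between siBRG1 and siSCR cells the groups did not overlap for these 2 members, both lower with siBRG1, against 8.25% of all genes. The comparisons with siSCR and with siBRM cells share the siBRG1 arrays. The muscle markers were also lower in siBRG1 than in siSCR cells at 18 h (median -0.86), and their part in these differences was not tested.

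Between siBRG1 and siBRM cells no member was called at either time by limma without a block or in the BeadChip fit, as 0% of all genes. At 48 h 1 member, Itgb1bp2, had an unadjusted p under 0.05 without a block (1.89% of all genes), and at 18 h Itga3 and Itgb7 did (1.36%). The BeadChip fit gave 1 at 48 h (8.09%) and 3 at 18 h (6.79%). Apart from the named members the differences lay between -0.63 and 0.56 at 48 h and between -0.68 and 0.96 at 18 h.

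The siRNA effect at 48 h minus that at 18 h was called for no member with either siRNA in either fit, and for 0% of all genes. Without a block no member reached an unadjusted p under 0.05 (0.203% of all genes for siBRM and 0.562% for siBRG1). In the BeadChip fit none did for siBRM, against 2.34% of all genes, and Itgb1bp2 and Itgb7 did for siBRG1, against 4.4%. The Itgb1bp2 effect of siBRG1 differed between the times by -2.07 ± 1.25 (-1.95 and -2.18 in the replicates) and that of Itgb7 by 1.39 ± 0.74 (1.17 and 1.61). Itgb1bp2 was at or near background at 18 h and Itgb7 at 48 h, which limits what the subtraction can show. For siBRM, Itga6 differed by -1.08 ± 1.45 (-1.87 and -0.29 in the replicates, with undetected arrays in replicate 1), and by 0.18 without the siBRM array of replicate 1 at 48 h and 0.11 without that of replicate 2 at 18 h.

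The genes whose pattern was most like that of a member were taken by Pearson's r over the 12 arrays, after the mean of each replicate had been subtracted. The arrays share their BeadChips and times, so the values only describe likeness. For Itga7 they were Abraxas2 (r = 0.98), Traf4 (0.977), Ankrd10 (0.976), Pld3 (0.965) and Klhl5 (0.964). For Itgb1bp2 they were Fam171a2 (r = 0.993), Ankrd2 (0.989), Tceal5 (0.989), Aatk (0.989) and Abra (0.987). For Itgb7 they were Abca7 (r = 0.973), Hnrnpll (0.965), Oxct1 (0.965), the member Itga3 (0.957) and Map3k11 (0.95). Ankrd2 and Abra encode proteins of striated muscle. Among the members, r was 0.858 between Itga7 and Itgb1bp2 and -0.954 between Itgav and Itgb1bp2.

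Of the other integrin subunits 16 were on the array, 7 were tested and 5 were detected nowhere: Itga1, Itga2, Itgam, Itgax and Itgb8. None of the 7 passed limma's test without a block in any comparison between siRNAs or times. Their median 48 h minus 18 h difference was 0.73 in siBRM, 0.41 in siBRG1 and 0.22 in siSCR cells, and their median between siBRG1 and siSCR cells at 48 h was 0.70. Each of these medians is the value of 1 gene detected on 4 or 6 arrays (Itga2b, Itga8 or Itgae), so it lies near background. Itga11, the collagen-binding alpha11 chain, was 1.82 ± 0.86 higher in siBRG1 than in siSCR cells at 48 h (1.55 and 2.08 in the replicates, adjusted p = 1, and 0.148 in the BeadChip fit). In the BeadChip fit it rose between the times in siBRM cells, by 1.94 (adjusted p = 0.0201), and in siBRG1 cells, by 2.63 (adjusted p = 0.0162), with an adjusted p = 1 for both without a block. The siBRM array of replicate 2 at 18 h did not detect Itga11, which was at least 3.45-fold higher at 48 h in that replicate. In siSCR cells it was higher at 48 h in both replicates too (0.25 and 1.06), at 1.15 in the BeadChip fit (adjusted p = 0.115). Itgb6, a TGF-beta-activating partner of alphav, differed by 1.86 ± 0.59 and Itgb4, the beta partner of alpha6 in epithelia, by -1.44 ± 0.83 between 48 h and 18 h in siSCR cells, and neither was called.

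The possible beta7 partners were weak. Itga4 was detected on 1 array and Itgae on 6. Of 12 leukocyte markers on the array 8 were detected nowhere, among them Ptprc, Cd4, Cd8a and Spi1, and the other 4, Cd3e, Itgae, Itgal and Itgb2, on 1 to 6 arrays each. The summed signal of the 2 tested ones, Cd3e and Itgae, was 223.8 to 400.7 in siBRM, 190.0 to 244.7 in siBRG1 and 216.6 to 254.9 in siSCR cells at 48 h, against 102.9 to 114.6, 119.0 to 197.4 and 139.1 to 169.7 at 18 h. The ranges at the 2 times overlap in siBRG1 cells. Cd3e was detected on 5 arrays, all at 48 h. Itgae differed by 0.71 in siBRM, 0.41 in siBRG1 and -0.24 in siSCR cells between the times, with 0.40 and -0.88 in the siSCR replicates, and was called in none. Among 8 epithelial and endothelial markers, 4 were detected on no array, and 3 were tested: Krt13, Krt8 and Cdh1. Krt13, an epithelial keratin named here as the one of them that was called, was detected on all 6 arrays at 18 h and on none at 48 h. It was at least 5.11-fold lower at 48 h in siBRM, at least 1.68-fold in siBRG1 and at least 7.71-fold in siSCR cells (adjusted p = 0.0633, 0.644 and 0.0235). At 18 h it differed by -2.03 ± 0.46 between siBRG1 and siSCR cells (adjusted p = 1). Krt8 and Cdh1 went otherwise: between the times Krt8 differed by 0.43 in siBRM, 0.18 in siBRG1 and 0.39 in siSCR cells, and Cdh1, detected on 3 arrays, by -0.53, -0.14 and -0.77, with opposite signs in the replicates of each group. The summed signal of the 3 tested markers of that list was 196.4 to 329.7 in siBRM, 187.1 to 223.6 in siBRG1 and 177.1 to 249.1 in siSCR cells at 48 h, against 547.9 to 760.8, 303.9 to 326.3 and 675.0 to 938.0 at 18 h. At 18 h Krt13 makes up most of that sum in siBRM and siSCR cells. Epcam was detected on no array. The part of these markers in the Itgb7 values was not tested.

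Of the lists of integrin-linked genes, 17 of 23 adaptors and activators, 8 of 10 inhibitors and cytoplasmic partners, 16 of 24 extracellular ligands and 14 of 15 tetraspanins and membrane partners were tested. Without a block none of them passed limma's test in any comparison of siRNAs or times. The BeadChip fit called 1 ligand and 1 tetraspanin as higher at 48 h in siSCR cells. The ligand was Col1a1, a chain of type I collagen, with a fitted 2.85 ± 0.95 (adjusted p = 0.731, and 0.0408 with the block), at least 4.88-fold in replicate 1, where the 18 h array did not detect it, and 1.94 on the log2 scale in replicate 2, and the tetraspanin was Cd82 at 1.64 ± 0.38 (adjusted p = 0.235 and 0.0417). Col1a1 was also called with the block in siBRM cells (adjusted p = 0.0303). In siSCR cells the adaptor Dab2, an endocytic adaptor of integrins, differed by -1.61 ± 0.53, and Flnc, the muscle filamin that binds beta tails, by 1.09 ± 0.43, and neither passed.

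Between siBRG1 and siSCR cells at 48 h, Flnc differed by -1.06 ± 0.43 (-0.95 and -1.17 in the replicates), Cd82 by -0.94 ± 0.38 (-0.67 and -1.22) and Tln1, which encodes the integrin activator talin 1, by -1.44 ± 0.61 (at least 3.54-fold lower in replicate 1, where siBRG1 cells were at background, and -0.67 in replicate 2). None passed without a block or in the BeadChip fit (smallest adjusted p of the 3 there 0.296). All 3 passed with median scaling and the BeadChip term together (adjusted p = 0.0335, 0.0354 and 0.0418), a combination chosen after seeing the data. It called 274 genes in this comparison and put the median of all genes at -0.18. At 18 h Tln2, the talin of striated muscle, differed by -1.34 ± 0.54 (at least 2.35-fold lower in replicate 1, with siBRG1 cells at background, and -0.55 in replicate 2) and Nid1, the basement membrane protein nidogen 1, by -1.42 ± 0.53 (-1.94 and -0.91), and neither passed in either fit. List medians between siBRG1 and siSCR cells at 48 h were 0.02 for adaptors, -0.04 for inhibitors, -0.21 for ligands and -0.10 for tetraspanins, beside 0.04 for all genes tested.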

How the data were processed

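Per the file headers, the deposited intensities are AVG_Signal values, the mean brightness of a probe's beads (linear), with detection p-values and, as other values, bead numbers (21 to 67 per member probe) and bead standard errors. A second deposited table of normalized intensities has array medians of 248.7 to 249.3. The submitters' processing notes name GenomeStudio 2009.1; how each value was computed is not given in the sources used here. Signals were background-corrected (normexp, offset 16, from detection p), quantile normalized and taken to log2 in limma 3.58.1 (R 4.3.3, statmod 1.5.0). Probes detected at p under 0.05 on at least 2 arrays were tested: 20415 probes of 10847 genes, 4219 genes with several. Of 45281 probes 34885 had 1 gene symbol, 18 several and 10378 none.

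Limma fitted a mean per group (6 residual degrees of freedom), two-sided, with Benjamini-Hochberg adjustment over all tested probes and calls at an adjusted p under 0.05; 11 comparisons were made. Deviations from the group means of same-numbered arrays correlated at r = 0.449 to 0.825 in the 15 pairs of groups. Differences by replicate and the fit with the replicate as a block therefore pair same-numbered arrays. The main fit, without a block, does not pair them. Between the times, pairing in replicate 1 sets the second BeadChip against the first, so time and BeadChip cannot be told apart there. The replicate block does not remove that. Blocked fits took the BeadChip as fixed (4 degrees of freedom) or random, or the replicate (5). With the fixed BeadChip, the step in time averaged over siRNAs rests on the third chip. Within each time on each chip siSCR precedes siBRM and siBRG1 in position, so position and siRNA cannot be told apart. The fits were tested on simulated data with independent noise, smaller than the observed spread, and no BeadChip or replicate effect. That test cannot show how the fits behave on arrays paired as these are.

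A member's fitted difference is printed where it was called without a block or with the fixed BeadChip, or had a size of at least 1 with the same sign in both replicates. From other lists, called genes and up to 2 further per list and comparison are open to naming. The members and lists were chosen with earlier results of these data known. Alternatives were other backgrounds, scalings, filters, probe rules and blocks, the deposited values and leaving out each array.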

Additional observations from a re-analysis of the deposited data

Results flagged for a closer look

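With siBRG1 both replicates of Itgb1bp2 were below siSCR at 48 h (-1.78 and -2.16) and slightly above it at 18 h (0.17 and 0.02), which sets the effects apart by -2.07. The 18 h values are at or near background. With siBRG1 both replicates of Itgav, on the probe the gene is read from, were above siSCR at 48 h (0.22 and 0.75). They were below it at 18 h (-0.27 and -0.02), which sets the effects apart by 0.63. The second Itgav probe, detected on every 18 h array, did not repeat the 18 h direction. There siBRG1 was below siSCR in replicate 1 and above it in replicate 2. The third probe was not detected in replicate 1 of either group at 18 h. The sign patterns themselves were not tested. Limma's interaction term gave an adjusted p = 1 for each in the fit with no block and 0.918 in the BeadChip fit.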

How the results depend on the processing

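The number of members called between 48 h and 18 h depended on the settings. In siBRM cells it was 1, and 2 without background correction, with the deposited values and with the mean of all probes, 0 with median scaling, 3 under a fixed or random BeadChip term, and 4 with median scaling and the fixed BeadChip. In siBRG1 cells it was 0, and 1 under a random BeadChip term and 2 with median scaling and the fixed BeadChip. In siSCR cells it was 1, and 0 without background correction, with median scaling and with the deposited values, 2 and 3 under a fixed and a random BeadChip term, and 4 with median scaling and the fixed BeadChip. Leaving out any 1 array gave 0 to 0 calls in siBRM and in siSCR cells. With the replicate as a block, which pairs same-numbered arrays, 3, 1 and 3 members were called in siBRM, siBRG1 and siSCR cells. In replicate 1 that pairing sets the second BeadChip against the first between the times. Of all genes that block called 271, 94 and 287 in these cells, against 50, 11 and 35 without a block. The random BeadChip term called 271, 119 and 300. Between siBRG1 and siSCR cells and between siBRG1 and siBRM cells at 48 h, median scaling with the fixed BeadChip called 1 member, Itgb1bp2, against 0; no other setting called a member between siRNAs. Under that combination, chosen after seeing the data, 1011, 211 and 737 genes were called between the times in siBRM, siBRG1 and siSCR cells, against 50, 11 and 35. Median scaling alone called no gene in any comparison and put the median of all genes at -0.26 and -0.18 for siBRM and siBRG1 against siSCR at 48 h and at 0.27 between the times in siSCR cells. Leaving out 1 array sets both replicates of a group against 1 of the other and so mixes BeadChips; in that way the sign of 3 uncalled differences turned, although each had 1 sign in both replicates. Itgb1 ranged from -0.61 to 3.18 between siBRM and siSCR cells at 18 h and from -0.38 to 3.41 between the times in siSCR cells. Itga6 ranged from -2.34 to 0.18 for the siBRM effect between the times. The other causes were not tested. Leaving out an array leaves a group with 1 sample, which is assumed to vary like the others. The filters on dim probes changed none of the member counts. With 2 arrays a group and 4 to 6 residual degrees of freedom, only large differences pass. Members near the detection limit (Itgb3, Itga6, Itgb7 at 48 h, Itgb1bp2 at 18 h) have only bounds, or none, wherever an array did not detect them.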
